A study of Homo sapiens with 20 samples.

Results

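The genes of 10 S100 proteins, small proteins most of which bind calcium, were followed through decitabine (DAC) treatment of lung cancer cells. Rows of the deposited expression table were taken by symbol, and all 10 genes, S100A2, S100A3, S100A4, S100A6, S100A8, S100A9, S100A10, S100A14, S100A16 and S100P, were found among its 36076 genes. The choice of genes used no measured value of this table, although results of the study were known when they were chosen. mRNA-seq covered 6 human lung cancer lines, A549, CL1-0, CL1-5, PC9, H1299 and H1792, and Omni-ATAC-seq, which maps accessible chromatin with a transposase, covered A549, CL1-5, PC9 and H1299. DAC cells received 100 nM DAC for 72 h and then grew for 3 days without the drug. Mock cells of the same line received PBS. With 1 library per line and treatment (12 for mRNA-seq and 8 for Omni-ATAC-seq), no line had a replicate of its own, and each line is an established culture. CL1-5 is a line selected from CL1-0 for invasiveness. DAC is a cytidine analog that enters DNA and traps DNA methyltransferases, so that methylation is lost as cells divide.

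S100 proteins carry a pair of EF-hand loops, which bind calcium in most of them, and usually act as dimers. Many bind targets such as annexins, myosin and p53 when calcium rises. Some are also released from cells and signal through receptors such as RAGE and TLR4. Most of the family lies in a cluster on the long arm of chromosome 1 beside the genes of epidermal differentiation, and many members are known for differing between normal and malignant epithelium.

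On GRCh37, 9 of the 10 genes lay on chromosome 1 and S100P lay on chromosome 4 (chr4:6695605-6698897, plus strand). The densest group ran over 33.3 kb from S100A6 (chr1:153507075-153508720) through S100A4 (chr1:153516089-153522612) and S100A3 (chr1:153519805-153521734) to S100A2 (chr1:153533584-153540366), all on the minus strand. S100A9 (chr1:153330330-153333499, plus strand) and S100A8 (chr1:153362508-153363549, minus strand) lay on one side of this group, and S100A16 (chr1:153579362-153585621) and S100A14 (chr1:153586731-153589462), both on the minus strand, on the other. The 8 genes from S100A9 to S100A14 spanned 259 kb, and S100A10 (chr1:151955391-151966335, minus strand) was 1364 kb away. S100A3 lay within the annotated span of S100A4 on the same strand, so that reads of these 2 genes could be shared and their separate values are uncertain.

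The 250 bases before the RefSeq start are shown for 4 members whose promoters differ in CpG number, the substrate of the methyltransferases that DAC depletes. They were taken from the RefSeq promoter table of build GRCh38, and each matched GRCh37 at a single place (S100A6 chr1:153508468-153508717, S100A10 chr1:151966336-151966585, S100A4 chr1:153518283-153518532, all minus strand, and S100P chr4:6695355-6695604, plus strand). CpG dinucleotides are in capitals, and each sequence is read 5′ to 3′ toward the gene.
S100A6: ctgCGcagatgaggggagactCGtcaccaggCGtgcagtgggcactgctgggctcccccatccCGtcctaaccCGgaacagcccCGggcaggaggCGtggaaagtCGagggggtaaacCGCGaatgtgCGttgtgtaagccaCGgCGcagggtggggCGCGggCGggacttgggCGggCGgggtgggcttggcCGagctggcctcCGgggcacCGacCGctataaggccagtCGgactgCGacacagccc
S100A10: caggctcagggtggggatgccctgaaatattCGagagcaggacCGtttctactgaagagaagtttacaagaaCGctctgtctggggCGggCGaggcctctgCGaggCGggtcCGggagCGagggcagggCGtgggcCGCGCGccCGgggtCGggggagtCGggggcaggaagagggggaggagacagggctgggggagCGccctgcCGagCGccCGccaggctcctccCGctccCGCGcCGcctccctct
S100A4: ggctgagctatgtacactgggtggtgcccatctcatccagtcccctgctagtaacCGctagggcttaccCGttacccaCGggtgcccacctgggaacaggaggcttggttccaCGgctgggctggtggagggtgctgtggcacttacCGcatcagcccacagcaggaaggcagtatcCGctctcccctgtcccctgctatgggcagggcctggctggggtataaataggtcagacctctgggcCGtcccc
S100P: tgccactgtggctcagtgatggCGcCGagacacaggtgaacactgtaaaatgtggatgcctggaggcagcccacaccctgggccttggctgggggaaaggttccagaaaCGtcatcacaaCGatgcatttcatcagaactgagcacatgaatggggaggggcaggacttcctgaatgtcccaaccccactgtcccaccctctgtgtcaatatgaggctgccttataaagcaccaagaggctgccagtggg
S100A6 and S100A10 held 24 CpGs each, above 76.3% of 35116 RefSeq promoters of the same length (median 11). S100A4 held 7 and S100P 4. The first-listed start of every other member had 4 or fewer, with 4 in S100A2, S100A3, S100A9 and S100A14, 2 in S100A8 and 1 in S100A16. The second start of S100A16 had 6 and that of S100A2 had 3. The letters TATAAA, searched on both strands, were present before the starts of S100A4, S100P and S100A9 and of 2 of the 3 listed starts of S100A8, and were in 10.7% of all promoters. The letters GGGCGG, on either strand, were present before the starts of S100A6, S100A10, S100A3 and S100A9 and the second start of S100A16, and were in 42.6% of all promoters. Matching letters are a description and not a bound site.

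Between 22234485 and 25303899 reads were counted on genes in the libraries other than H1299, and 59735913 (Mock) and 52634234 (DAC) in H1299. The H1299 libraries held mostly even read numbers (85.5% and 81.9% of the numbers from 1 to 20, against 39.2% to 41.5% elsewhere), so their reads are not independent counts. FPKM, fragments scaled to gene length and library depth, is a level per length, and a level of 3 reads or fewer was treated as undetected. Epithelial markers (6 of 6 in the table) summed to 0.986 (Mock) and 3.06 FPKM (DAC) in CL1-0, so these markers were near absent there, against Mock sums from 112 FPKM in H1299 to 3589 in A549 in the other 5 lines. Myeloid markers, a list including the defining genes PTPRC, SPI1, FCGR3B and MPO, summed over 10 genes to 0.833 to 5.49 FPKM in Mock and 1.12 to 11.8 FPKM after DAC, and the sum was higher after DAC in 6 of 6 lines. Those 4 genes and CSF3R were below the filter on low values, and the other 5 (CD14, ITGAM, CSF1R, LYZ and TYROBP) passed it.

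S100A6 (calcyclin), which binds annexins and the ubiquitin ligase partner CACYBP, was among the most abundant mRNAs of 4 lines and nearly silent in the other 2. Its Mock level was 1453 FPKM in A549, 1055 in CL1-5, 982 in H1792 and 604 in PC9, but 0.180 in H1299 and 0.0436 in CL1-0. After DAC it was 897 in A549, 1116 in CL1-5, 1687 in H1792 and 464 in PC9, and 10.4 in H1299 and 4.14 in CL1-0. The high and the low lines, named here from their Mock levels, did not overlap after DAC either. In H1299 the gene went from 10 to 534 reads, a ratio of 57.8 (95% exact interval 31.2 to 121), and in CL1-0 from 1 to 119 reads, a ratio of 94.9 (16.7 to 3779). All such intervals, for which 1 library stood for each treatment, cover counting error only, and in H1299 they are too narrow because of the even reads. Both lines remained far below the other 4 after DAC. In the same 2 lines the 6 epithelial markers summed to more after DAC, 672 FPKM against 112 in H1299 and 3.06 against 0.986 in CL1-0, and S100A16 was higher too. The marker sum was also higher in H1792 and was lower in A549, PC9 and CL1-5. In H1299 the log2 change was 5.13 for KRT19, 4.10 for EPCAM and 3.28 for KRT8, and their part in the S100A6 and S100A16 values was not tested. The ratios in the lines where S100A6 was abundant lay between 0.617 in A549 and 1.72 in H1792. Its log2 change over the 5 lines that the study analysed together, without H1792, was 1.82 ± 0.98 (SE, n = 5 lines, adjusted p = 0.467), which rested on CL1-0 and H1299. Leaving out H1299 gave 0.97, leaving out CL1-0 gave 1.06, and limma voom on the reads behind the FPKM gave 0.27. In bulk RNA, a rise in every cell and a rise in few cells cannot be told apart.

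**Figure D1:**
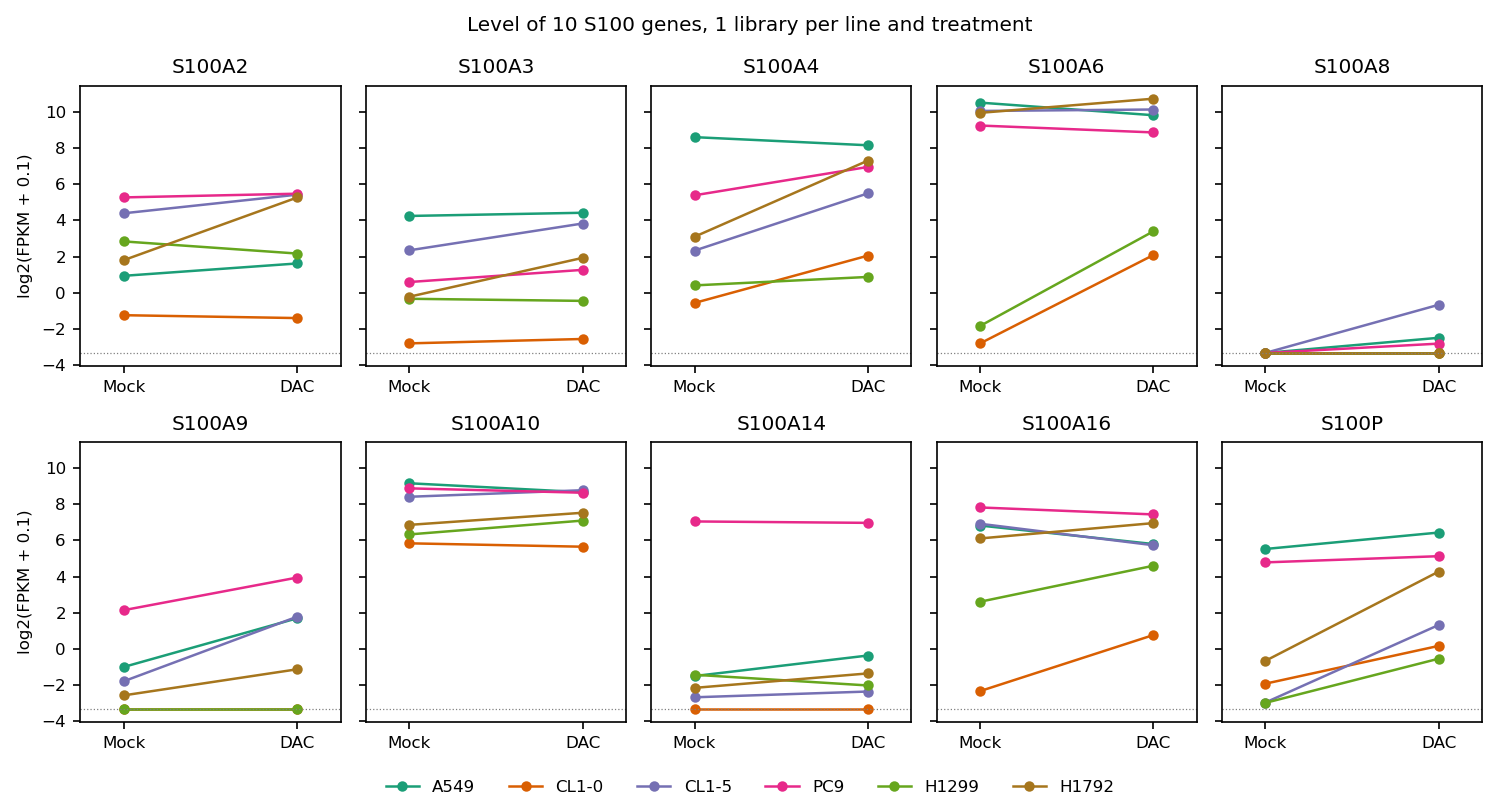
Level of each gene as log2(FPKM + 0.1) in Mock and DAC libraries, 1 point per library, with a line joining the 2 libraries of a cell line; the dotted line is a level of 0. S100A6 and S100A16 lie far lower in CL1-0 than in A549, S100A14 is high in PC9, and S100P rises from Mock to DAC in 6 of 6 lines.

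S100A4, known as metastasin and a partner of non-muscle myosin, was higher after DAC in 5 of 6 lines. In Mock cells it was 387 FPKM in A549, 41.7 in PC9, 8.46 in H1792, 4.93 in CL1-5, 1.23 in H1299 and 0.579 in CL1-0. After DAC it was 284 in A549, 124 in PC9, 158 in H1792, 45.0 in CL1-5, 1.74 in H1299 and 4.05 in CL1-0. The ratio of DAC to Mock was 18.7 in H1792 (95% exact interval 16.3 to 21.5), 9.12 in CL1-5 and 2.96 in PC9, and CL1-0 went from 14 to 123 reads. A549, the line with the highest Mock level, had a ratio of 0.733, whose direction turned under quantile normalization (log2 -0.45 to 0.16). The Mock and DAC ranges overlapped, and the log2 change over 5 lines was 1.47 ± 0.50 (SE, n = 5, adjusted p = 0.326).

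The neighbours S100A3 and S100A2 had narrower changes. S100A3, a cysteine-rich member best known from hair cuticle, was 18.9 FPKM in A549, 4.98 in CL1-5, 1.41 in PC9, 0.760 in H1792, 0.696 in H1299 and 0.0444 in CL1-0 without DAC. With DAC it was 21.3, 14.1, 2.31, 3.71, 0.634 and 0.0707 FPKM in the same lines. It was thus at least 2-fold higher in CL1-5 (ratio 2.83, interval 2.30 to 3.50) and H1792 (4.88, 2.91 to 8.63), and had no more than 2 reads in either CL1-0 library. S100A2, a p53-binding member of basal epithelial cells, was 38.5 FPKM in PC9, 20.9 in CL1-5, 7.05 in H1299, 3.40 in H1792, 1.82 in A549 and 0.324 in CL1-0. After DAC the same order of lines had 44.4, 42.8, 4.40, 38.3, 2.98 and 0.280 FPKM. H1792 stood out with a ratio of 11.3 (9.44 to 13.6), and CL1-5 had 2.04, whereas H1299 had 0.623. H1792 is not among the 5 lines fitted, and the log2 change of S100A2 was 0.22 ± 0.24 without it (SE, n = 5, adjusted p = 0.71). With H1792 it was 0.76 ± 0.47 (SE, n = 6).

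S100P, which binds ezrin and is also secreted as a RAGE ligand, was higher after DAC in 6 of 6 lines. Without DAC it was 46.0 FPKM in A549 and 27.5 in PC9, and it was 0.535 in H1792, 0.165 in CL1-0, 0.0288 in CL1-5 and 0.0273 in H1299. With DAC it was 86.4 in A549, 34.9 in PC9, 19.3 in H1792, 2.41 in CL1-5, 1.03 in CL1-0 and 0.591 in H1299. The 2 lines that expressed S100P in Mock stayed highest, and the ranges of Mock and DAC overlapped. H1792 went from 17 to 593 reads, a ratio of 36.1 (95% exact interval 22.3 to 62.3). CL1-5 went from 1 to 75 reads (83.7, 14.6 to 3350), H1299 from 2 to 40 (21.6, 5.61 to 185) and CL1-0 from 5 to 39 (6.22, 2.45 to 20.2). In A549 the ratio was 1.88 and in PC9 1.27. Its log2 change of 2.01 ± 0.52 over the 5 lines (SE, adjusted p = 0.25) did not pass the test over all genes. It was 2.50 ± 0.58 with H1792 (SE, n = 6, adjusted p = 0.17), and over all 15 alternative settings the adjusted p ran from 0.17 to 1.

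S100A8 and S100A9 form calprotectin, the heterodimer of neutrophils and inflamed epithelium. S100A8 had 0 reads in all 6 Mock libraries, which allows up to 0.0522 to 0.143 FPKM by line. After DAC it had 13 reads in CL1-5 (0.532 FPKM), which is 4.84 times the limit of 3 reads in the Mock library, and the exact interval of the ratio began at 3.40. It had 2 reads or fewer in each other line. S100A9 was 4.34 FPKM in PC9, 0.404 in A549, 0.192 in CL1-5 and 0.0699 in H1792 without DAC and had 0 reads in CL1-0 and H1299. With DAC it was 15.4 in PC9, 3.15 in A549, 3.35 in CL1-5 and 0.361 in H1792, and the 2 lines with 0 reads had 0 again. The ratio was 3.54 in PC9 (95% exact interval 2.60 to 4.90, from 52 to 205 reads), 7.79 in A549 (3.11 to 25.1) and 17.5 in CL1-5 (5.63 to 87.8), while H1792 rested on 1 and 5 reads (5.17, 0.578 to 244). Over 5 lines the log2 change of S100A9 was 1.61 ± 0.55 (SE, adjusted p = 0.329). Of the tested genes of the myeloid list, TYROBP, a signalling adaptor, had the highest log2 change, 2.90 ± 0.45 (SE, n = 5, adjusted p = 0.0937). Those of CSF1R (0.97), ITGAM (0.63), LYZ (0.54) and CD14 (0.38) were smaller. SPI1, with at most 4 reads, was lower after DAC in every line but H1792. TYROBP was higher in every line, also in CL1-0 (2.59) and H1299 (1.05), where S100A9 had 0 reads. The part of myeloid-type expression in the S100A9 values was not tested.

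S100A10, the annexin A2 partner that binds plasminogen and helps bring ion channels to the membrane, was expressed in every library. It was 571 FPKM in A549, 470 in PC9, 340 in CL1-5, 116 in H1792, 80.4 in H1299 and 57.2 in CL1-0 in Mock. After DAC the values were 406, 398, 437, 184, 137 and 50.2 FPKM in the same order. No line reached a 2-fold difference, and the ratio ranged from 0.710 in A549 to 1.70 in H1299. The log2 change was 0.04 ± 0.21 (SE, n = 5, adjusted p = 0.947), and its sign depended on which line was in the fit.

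S100A14 and S100A16, neighbours on chromosome 1 and binding partners, had unlike patterns. S100A14, an epithelial member, was 132 FPKM (Mock) and 125 FPKM (DAC) in PC9. All other libraries had 0.681 FPKM or less, and CL1-0 had 0 reads with both treatments. Its largest ratio was 2.66 in A549, from 7 to 22 reads (95% exact interval 1.10 to 7.38). S100A16, a widely expressed member, was 226 FPKM in PC9, 121 in CL1-5, 113 in A549, 68.9 in H1792, 6.01 in H1299 and 0.0996 in CL1-0 in Mock. After DAC the same lines had 173, 53.2, 55.6, 124, 24.2 and 1.61 FPKM. The 2 lines with the lowest Mock levels had ratios of 16.1 (CL1-0, from 4 to 81 reads, interval 6.07 to 60.7) and 4.02 (H1299). CL1-5 and A549 went the other way, with ratios of 0.439 and 0.492, so the lines came closer together, from a log2 range of 10.15 in Mock to 6.66 after DAC. S100A16 in these 2 lines gave the only member and line pairs at least 2-fold lower. When FPKM was rescaled to a common sum, the A549 difference went from log2 -1.02 to -0.68 and that of CL1-5 from -1.19 to -1.30.

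Over the 5 lines, the level of no member passed the limma test of DAC against Mock (0 of 9 tested, where 0.119% of 22603 genes were higher and 0% were lower at an adjusted p under 0.05). S100A8 was below the filter of a mean of 0.1 FPKM. At an unadjusted p under 0.05, 3 of the 9 members (S100P, S100A4 and S100A9) were higher, against 8.07% of all genes, and 0 were lower, against 4.4%. limma voom on recovered reads also called 0 members, with 2 at an unadjusted p under 0.05, and the fit with H1792 called 0, with 4 of 9 higher at an unadjusted p under 0.05 (0.232% and 8.92% of 22814 genes were higher at these thresholds in that fit). All 9 tested log2 changes were above 0, and their median was 0.50, against 0.07 over all genes tested, so most genes were above 0 as well. The median of the members is the value of S100A16, which was -0.10 in limma voom and -0.15 without CL1-0. The log2 changes of S100A3 (0.49), S100A16 (0.50), S100A2 (0.22), S100A14 (0.16) and S100A10 (0.04) were smaller, and their adjusted p ran from 0.439 for S100A3 upward. These p-values measure the spread of the change between lines.

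**Figure D2:**
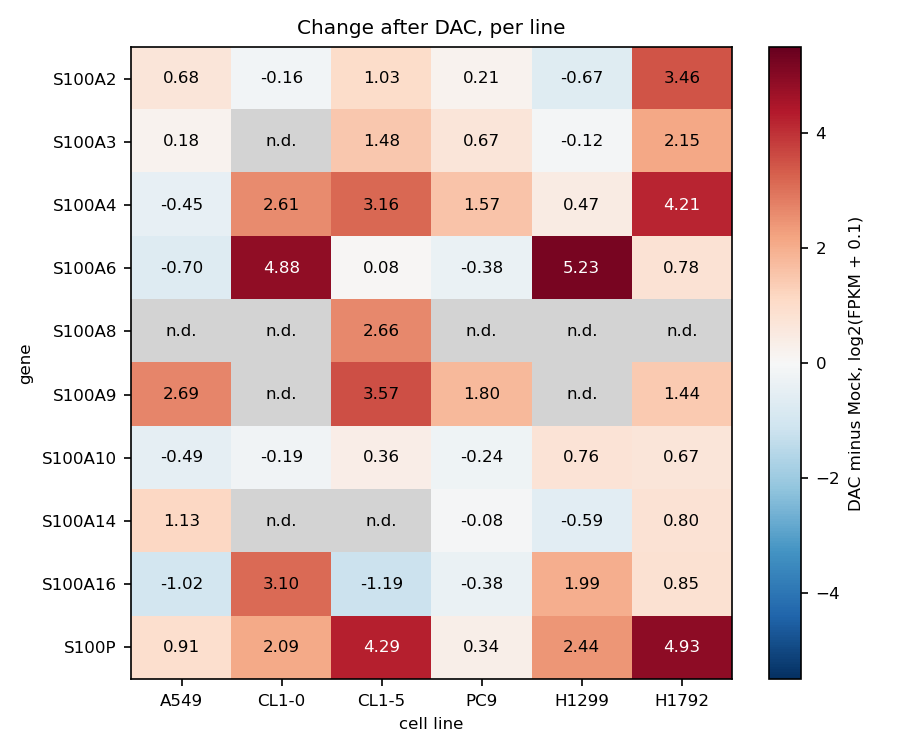
Difference between DAC and Mock as log2(FPKM + 0.1) for each gene (rows) and line (columns), 1 library per treatment; red is higher after DAC, blue lower, and n.d. marks pairs with 3 reads or fewer in both libraries. The values run from -1.19 for S100A16 in CL1-5 to 5.23 for S100A6 in H1299.

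Counted by line, with 1 library on each side and therefore no test, the members at least 2-fold higher on the log2(FPKM + 0.1) scale were 6 of 10 in CL1-5 (7.23% of all genes), 5 of 10 in H1792 (11%), 4 of 10 in CL1-0 (7.6%), 3 of 10 in H1299 (8.04%), 2 of 10 in PC9 (10.3%) and 2 of 10 in A549 (15.5%). The counts in A549 and PC9 are near these shares, since 1 member is 10% of the 10. S100A8, counted in CL1-5, was below the filter that all genes here passed. At least 2-fold lower was 1 of 10 in A549 (6.65% of all genes) and 1 of 10 in CL1-5 (5.08%), and 0 of 10 in CL1-0 (2.11%), PC9 (3.1%), H1299 (3.12%) and H1792 (6.1%). Of the 60 member and line pairs, 22 were higher, 2 lower, and 10 had 3 reads or fewer in both libraries.

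Most of the higher pairs began low. Of the 28 pairs with a Mock level under 1 FPKM, 14 were at least 2-fold higher, and this share was 11.8% to 28.2% by line for all genes that began there. Of the 10 pairs from 1 to 10 FPKM, 6 were higher (1.14% to 5.97% of all genes), namely S100A2 in H1792, S100A3 in CL1-5, S100A4 in CL1-5 and H1792, S100A9 in PC9 and S100A16 in H1299. Of the 22 pairs at 10 FPKM or more, 2 were higher, S100A2 in CL1-5 and S100A4 in PC9, and 2 were lower, S100A16 in A549 and CL1-5. Among all genes that began there, 0.0485% to 2.64% by line were higher, and 11.4% in A549 and 0.575% in CL1-5 were lower. Mock level and change share the Mock value, so a low start and a rise are not independent measurements.

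**Figure D3:**
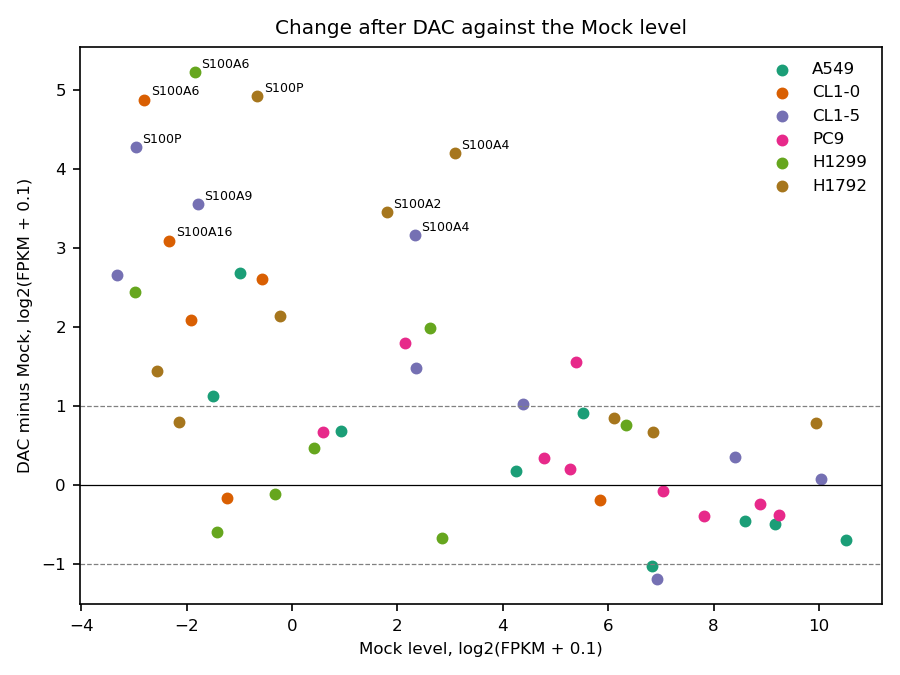
Difference between DAC and Mock against the Mock level, both as log2(FPKM + 0.1), for the 50 member and line pairs with more than 3 reads in a library; dashed lines mark 2-fold. Points above the upper line lie mostly at low Mock levels, and 20 of the 22 higher pairs began under 10 FPKM.

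The scaling between libraries turned the direction of differences under 2-fold only. Rescaling FPKM to a common sum moved the median change of all genes by 0.33 in A549, 0.17 in CL1-0 and 0.16 in PC9 on the log2 scale, and by less than 0.1 in the other lines. By the sign of the difference, 42 of the 50 detected pairs kept their direction under both rescaling and quantile normalization. The 8 that did not were S100A4 in A549, S100A6 in A549, CL1-5 and PC9, S100A10 in A549, CL1-0 and PC9, and S100A14 in PC9, all within 2-fold. Of these, only S100A6 in CL1-5 (0.08 to -0.03) and S100A14 in PC9 (-0.08 to 0.09) turned under the rescaling to a common sum. The rest changed under quantile normalization alone, where S100A6 in A549 came to 0.

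Levels were also compared between lines, with the Mock and DAC library of a line in place of replicates, so the spread between cultures of a line was not measured. All 9 tested members differed between the 6 lines (limma F-test with treatment as a term, adjusted p from 4.52e-06 for S100A14 to 0.000984 for S100A9), but so did 78.4% of 22814 genes, so the count itself is no feature of the family. The SD of S100A6 between the line means was 5.04 on the log2 scale, at the 99.7th percentile of 13363 genes with a mean of at least 1 FPKM (median SD 0.66). That of S100A14 was 3.78 (98.9th), of S100P 3.28 (97.9th), of S100A16 3.10 (97.3rd) and of S100A4 3.06 (97.1st), while S100A2, S100A3 and S100A9 lay near the 93rd and S100A10, at 1.30, at the 74.2nd.

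In the order of line means, neighbours were separated at few places. The order came from the same libraries, so the direction of each step was fixed in advance. The adjusted p-values of the limma contrasts do not allow for this choice of pairs. For S100A6, PC9 exceeded H1299 by 8.27 ± 1.47 (log2, SE, adjusted p = 0.00195), and neither the 4 lines above nor the 2 below this step differed from their neighbours. For S100A14, PC9 exceeded A549 by 7.93 ± 0.43 (adjusted p = 1.3e-05). For S100A16 there were steps from A549 to H1299 (2.71, adjusted p = 0.0452) and from H1299 to CL1-0 (4.38, adjusted p = 0.00613). S100P stepped from PC9 to H1792 (3.15, adjusted p = 0.0436), S100A9 from PC9 to A549 (2.69, adjusted p = 0.0394) and S100A2 from A549 to CL1-0 (2.60, adjusted p = 0.045). S100A10 stepped from CL1-5 to H1792 (1.40, adjusted p = 0.015) and from H1299 to CL1-0 (0.97, adjusted p = 0.0466), and S100A3 from CL1-5 to PC9 (2.16, adjusted p = 0.0132) and from H1299 to CL1-0 (2.28, adjusted p = 0.00737). The order of S100A4 (A549, PC9, H1792, CL1-5, CL1-0, H1299) held no step between neighbours that passed.

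The invasive line CL1-5 was compared with CL1-0, with the Mock and DAC library of each line in place of replicates. CL1-5 was higher in 6 of 9 tested members (9.75% of all genes were higher and 7.78% lower), with S100A6 higher by 10.44 ± 1.47 (log2, SE, adjusted p = 0.00199), S100A16 by 7.10 ± 0.96 (0.00156), S100A2 by 6.22 ± 0.81 (0.00131), S100A3 by 5.76 ± 0.52 (0.000211), S100A9 by 3.33 ± 0.83 (0.0263) and S100A10 by 2.85 ± 0.34 (0.000884), each adjusted p in parentheses. S100A4, the member named for metastasis, was 3.17 ± 0.96 apart and missed the threshold (adjusted p = 0.0552). S100P (0.06 ± 1.01, adjusted p = 1) and S100A14 (0.82 ± 0.43, adjusted p = 0.247) did not pass. Epithelial markers summed to 144 FPKM in Mock CL1-5 against 0.986 in Mock CL1-0, and the part of that difference in the S100 values was not tested.

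The gene whose level followed each member most closely was sought among 13363 genes over the 12 libraries, which share a line in pairs, so the correlations are descriptions. The highest Pearson r was 0.989 for S100A14 with ITGB6, 0.980 for S100A10 with LINC00511, 0.979 for S100A9 with C6orf223 and 0.960 for S100A6 with MGST2. For S100P it was GGTLC2 (0.956), for S100A3 AGRN (0.956), for S100A2 BCAR3 (0.952), for S100A16 MYO10 (0.948) and for S100A4 HSPB8 (0.937). Among members, S100A4 and S100P (0.919), on different chromosomes, and S100A6 and S100A16 (0.894) followed each other most closely.

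Genes related to the members by family, binding or position gave 0 calls over the 5 lines in limma, with the same background as above. Of 12 genes listed by the name S100 outside the members, 5 were tested, and 0 had an unadjusted p under 0.05. These were 4 S100 genes, 2 above and 2 below 0, and S100PBP, a binding protein of S100P and no S100 gene itself, below 0. They included S100A11, another abundant member (820.6 FPKM in Mock A549, 21.4 in Mock CL1-0, log2 change -0.19 ± 0.16), and S100A13, which helps export growth factors (-0.07 ± 0.30). All 14 binding partners and receptors were tested, 7 above and 7 below 0, none at an unadjusted p under 0.05. ANXA2, the partner of S100A10, changed by -0.33 ± 0.15 (log2, SE, adjusted p = 0.411), EZR, the ezrin that S100P binds, by 0.22 ± 0.19, the receptor AGER by -0.24 ± 0.17 and the receptor TLR4 by 0.23 ± 0.21. The highest of them was the scavenger receptor CD36 (0.37) and the lowest the annexin ANXA1 (-0.39).

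Of 45 epidermal differentiation genes, 29 were in the table and 7 were tested, 5 above and 2 below 0, with 1 higher at an unadjusted p under 0.05, and ran from SPRR1B (-0.08) to TCHH (1.03). The 13 non-S100 neighbours of the chromosome 1 cluster were all tested, 5 above and 8 below 0, with 1 higher and 1 lower at an unadjusted p under 0.05, and ran from RAB13 (-0.44 ± 0.10, adjusted p = 0.202) to NPR1 (1.80 ± 0.60, adjusted p = 0.323). Their median was -0.03, against 0.50 for the members, which is the value of S100A16, and 0.07 for all genes. All 6 epithelial markers were above 0, with EPCAM highest (1.69 ± 0.54, adjusted p = 0.309), and so were the 5 tested myeloid markers.

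For accessibility, each peak list gave a fold enrichment over background, and a gene was ranked within a list by its strongest peak within 3000 bp of its start. The labels of the CL1-5 and PC9 peak lists and the line names inside the lists are exchanged, and expression went against the labels. Of 138 genes at 5 FPKM or more in PC9 and 0.1 or less in CL1-5, 53.6% had a promoter peak in the library labelled PC9 and 95.7% in the one labelled CL1-5. For 79 genes of the reverse kind, the shares were 63.3% in the library labelled CL1-5 and 88.6% in that labelled PC9. The A549 and H1299 lists went with their labels. Libraries are therefore named by label, and results that pair the 2 assays are given both ways.

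Members with a promoter peak in Mock and DAC were 8 and 9 of 10 in A549, 2 and 7 in H1299, 9 and 10 in the library labelled CL1-5, and 7 and 10 in that labelled PC9. Of 17319 ranked genes, 79.6% and 83.6%, 74.6% and 78.4%, 83.1% and 84.6%, and 81.1% and 85% had one. H1299 Mock was thus the list in which the fewest members had a peak, with peaks at S100A2 (fold enrichment 4.83) and S100A10 (4.10) only. After DAC, H1299 had peaks also for S100P (2.84), S100A6 (2.76), S100A16 (2.55), S100A4 (2.43) and S100A14 (2.34). These were 5 of 10 members against 7.88% of all genes, or 5 of the 8 members without a Mock peak against 31.1% of the 4395 genes without one. The H1299 list was longer after DAC (63541 peaks against 45354). When each line's lists were limited to the same number of strongest peaks, H1299 gained 1 member, S100P, and over the 4 lines 4 member and line pairs were gained in place of 10. The 5 new peaks were weak ones, at the 23.7th to 30.4th percentile of the 17319 ranked genes. Genes without a peak are tied at the bottom of that ranking, and 78.4% had one, so the 5 lay near the weakest peaks.

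The new peaks of H1299 differed in what they covered. In H1299 the S100A4 peak (chr1:153517371-153518523) covered the start and part of the sequence shown above. The S100A6 peak (chr1:153505544-153506443) lay 2274 bp from the start, past the end of the gene, and no H1299 peak covered the CpG-rich S100A6 promoter, although its reads went from 10 to 534. In A549 and the libraries labelled CL1-5 and PC9 that promoter had a peak with both treatments. The S100P peak of H1299 (chr4:6697538-6698485) lay 1972 bp from the start within the gene. At the S100P start itself, peaks were listed in the DAC library of A549 and in both libraries labelled CL1-5.

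In the other lines the members gained were S100A8 in A549 (8.08% of all genes and 39.6% of those without a Mock peak gained one), S100A3 in the libraries labelled CL1-5 (5.77% and 34.2%) and S100A8, S100A14 and S100P in those labelled PC9 (7.75% and 41%), which were all members without a Mock peak in the lists labelled CL1-5 and PC9. The gain of S100A8 in A549 rested on the distance limit for a promoter peak. The A549 Mock list held an S100A8 peak at -3007 bp from the start (fold enrichment 3.13), just outside that limit. This Mock peak overlapped the A549 DAC peak at -2825 bp (fold enrichment 3.22). S100A14 was at 1 FPKM or more in PC9 alone. It had a Mock peak in the library labelled CL1-5 (fold enrichment 2.62) and none in that labelled PC9. Percentiles are set within lists of unequal length (85710 and 97584 peaks for the libraries labelled CL1-5, 58734 and 78199 for A549), so they are given side by side only. S100A9 stood at the 31.0th percentile in Mock and the 78.3rd after DAC in the libraries labelled CL1-5, and S100P at the 61.9th and the 22.6th in A549. These ranks do not describe the starts themselves. The ranked S100A9 peaks lay at -2107 bp (Mock) and -2094 bp (DAC). The ranked S100P peaks of A549 lay within the gene, at 1779 bp (Mock) and 1882 bp (DAC). At the S100P start A549 had a peak after DAC only (fold enrichment 2.49). S100A10 had a peak over its start in all 8 lists.

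**Figure D4:**
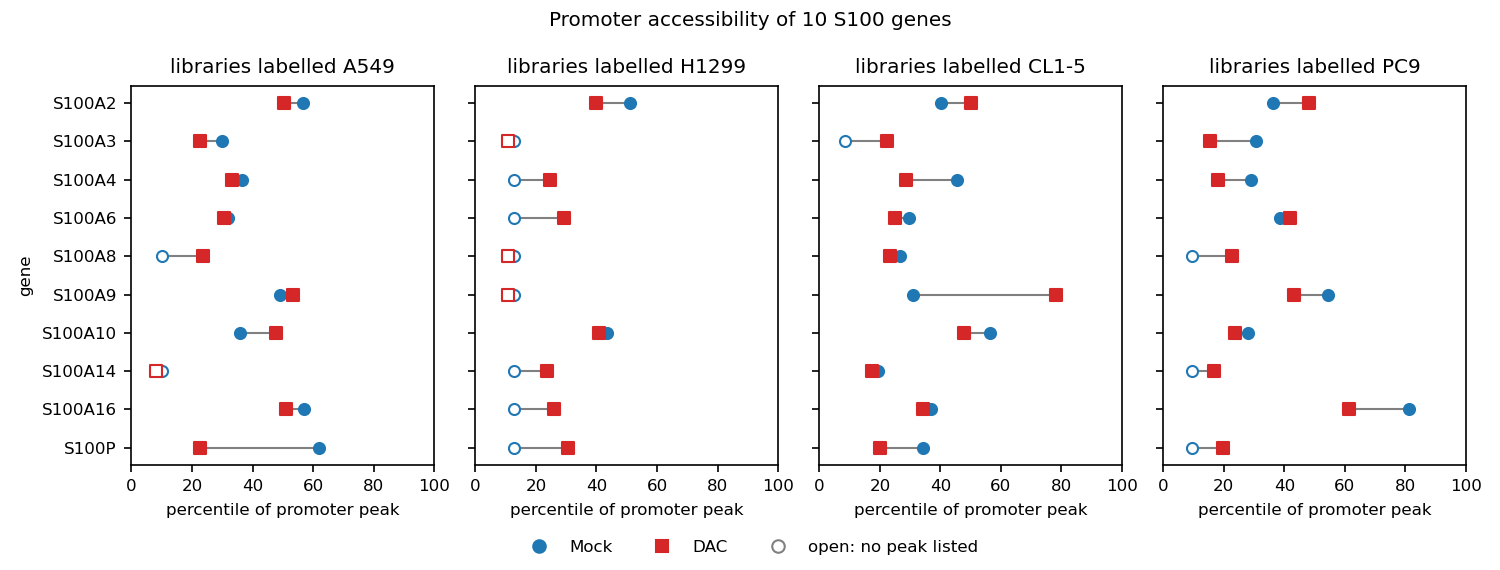
Percentile of each gene's strongest promoter peak among 17319 genes ranked within a list, for Mock (circles) and DAC (squares), 1 library each, by labelled line; open symbols are genes with no peak, tied at the bottom. In H1299, 8 of 10 members have no Mock peak and 5 of these have one after DAC.

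Expression and peaks were set side by side for the 40 member and line pairs with both assays. Among the 26 pairs at 1 FPKM or more in Mock, 21 had a promoter peak by the labels and 23 with the CL1-5 and PC9 libraries exchanged, against 90.7% and 91.5% of all genes at that level. After DAC, all 30 such pairs had one either way (91.3% and 92% of all genes). Among pairs under 1 FPKM, 5 of 14 had a peak in Mock (3 with the libraries exchanged) and 6 of 10 after DAC, against 64.3% and 70.5% of all genes. Of the 13 pairs at least 2-fold higher after DAC, 4 had a peak after DAC only by the labels (5 exchanged), 8 had one with both treatments (7 exchanged) and 1 had none. The 8 by the labels include S100A8 in CL1-5, whose Mock and DAC peaks did not overlap. The Mock peak lay at -2987 bp, just inside the distance limit, and the DAC peak at 100 bp. Of the 20 pairs within 2-fold, 4 had a peak after DAC only by the labels (3 exchanged), 15 had one with both treatments (16 exchanged) and 1 had none. The difference between the 2 sets of pairs was not tested. Peak lists have no replicate within a line, and the depth of each library was not given in the sources used here.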

How the data were processed

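mRNA-seq libraries (12) and Omni-ATAC-seq libraries (8) took their line and treatment from the labels. In DAC against Mock, lines served as replicates, and p-values measure the spread of the change between these lines. In the comparisons between lines, the differently treated Mock and DAC libraries of a line stood in place of replicates. Those p-values measure how unevenly the lines changed from Mock to DAC, and not the spread between cultures of a line. The members and gene lists were chosen with earlier results of these data known. For mRNA-seq, the authors prepared stranded libraries, aligned reads to hg19 with RSEM and bowtie2 (the submitters' processing notes name TopHat2 2.1.1), counted reads per GENCODE gene and used DESeq2 1.24.0 for the FPKM they deposited. The mean normalized signal per gene, also deposited, was used to recover the reads. The authors' log2 fold changes, standard errors, test scores and p-values in that table were not used. For Omni-ATAC-seq, the authors aligned reads with BWA, called broad peaks in each library with MACS2 2.2.5 and annotated them with ChIPseeker 1.20.0. For every peak the deposited lists hold a fold enrichment, −log10 q-value, −log10 p-value and score. Columns of values without a sample numbered 0.

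Each FPKM is a whole multiple of the value of 1 read, within a tolerance of 0.01 reads, for 100% of values in each library. log2(FPKM + 0.1) of genes with a mean of at least 0.1 FPKM entered limma 3.58.1 (R 4.3.3) with line as a block, an intensity trend and Benjamini-Hochberg adjustment over all genes at 0.05, two-sided. A fold change on this scale understates the change of low genes. Line differences were tested with treatment as a term. Mock and DAC libraries share their line's culture, and what was left after removing the treatment means correlated at 0.731 to 0.9 for a line's own pair and at most 0.115 across lines, so the block belongs to the design. Ratios of 1 library to another have 95% exact intervals, and a fold against 0 reads is a bound at 3 reads. Tested on simulated data of 22651 genes for DAC against Mock, the fit recovered 38% of 50 genes changed by a log2 of 1 and 86% of 50 changed by 2, with 1 false call. For line differences, simulated on 22758 genes, it recovered 85% of 200 genes changed by a log2 of 2 with 32 false calls, and for CL1-5 against CL1-0 86.5% with 20, so adjusted p-values near 0.05 in those fits are lenient.

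Genes were ranked within each peak list by the fold enrichment of the strongest peak within 3000 bp of the start and listed for the gene. Gene positions are from GENCODE on GRCh37, and the rightmost peaks of chromosomes 1 and 4 lay within that build. RefSeq promoter entries matched 10 of 10 members, with 14 starts. Named genes are the 10 members, from every other list its calls or else its highest and lowest log2 change, with ANXA2, EZR, AGER, TLR4, S100A11 and S100A13, and for each member the gene of highest correlation. Alternatives were the 6-line fit, no block, pseudocounts of 1 and 0.01, other filters, 2 rescalings, no trend, limma voom, each line left out, a 4-fold limit, and other peak thresholds, windows, numbers and assignments. Python 3.11.15, numpy 2.4.6, scipy 1.17.1 and matplotlib 3.10.9 were used.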

Additional observations from a re-analysis of the deposited data

Results flagged for a closer look

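In 29 groups of 6 lines (levels or changes of a member), the highest or lowest line was set against Dixon's 95% critical value of 0.625, and 4 groups passed. About 1 in 20 groups passes by chance. S100A14 stood apart in PC9, with a log2(FPKM + 0.1) level of 7.05 in Mock, where the next line was at -1.42, and of 6.97 after DAC, where the next was at -0.36. S100A8 stood apart in CL1-5, with a level of -0.66 after DAC (13 reads) against -2.49 in the next line, and with a change of 2.66 from a Mock library with 0 reads. S100A8 had 0 reads in every Mock library, so these last 2 values are the same observation.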

How the results depend on the processing

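No member was called in DAC against Mock under any of the 15 alternatives, which include each line left out in turn, and all 9 differed between lines under each of 12. The self-test recovered 38% of changes of log2 1 that were equal in all lines, so changes of that size are often missed with 5 lines. Without the replicate block 0 members were called in limma, 0 had an unadjusted p under 0.05, and 10 genes were called in all. The direction of 3 small changes was not kept. S100A10 was -0.039 without CL1-5 and -0.14 without H1299 (-0.14 to 0.17 with a line left out), S100A14 was -0.088 without A549 (-0.088 to 0.34), and S100A16 was -0.097 in limma voom and -0.15 without CL1-0 (-0.15 to 0.92). S100P was 0.88 with a pseudocount of 1, 2.76 with 0.01, 1.33 in limma voom and 1.44 to 2.43 with a line left out. The number of members called higher in CL1-5 than in CL1-0 was 5 to 7 over the alternatives. Pairs at least 2-fold lower, 2 as reported, were 1 with FPKM rescaled to a common sum, 1 with quantile normalization and 0 at a 4-fold limit. Pairs at least 2-fold higher, 22 as reported, were 16 to 23 over other pseudocounts and rescalings and 15 at 4-fold. Member and line pairs with a promoter peak after DAC only, 10 as reported, were 4 with the same number of strongest peaks in Mock and DAC, and with that limit 24 pairs had a peak after DAC against 26 in Mock. The longer DAC lists enter the count of 10 by construction. Both counts, 10 and 4, include S100A8 in A549, where a Mock peak just outside the distance limit overlapped the DAC peak. Over all genes the number called in DAC against Mock was 27 higher and 0 lower in the reported fit, 53 and 0 with H1792, 178 and 1 in limma voom, and 0 and 0 with a pseudocount of 1, without A549 or without CL1-5. Counting intervals do not cover culture or library differences, 1 library per line and treatment leaves single-line differences untested, and S100A8 is near the limit of detection.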
